A study of Homo sapiens with 11 samples.

Results

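Heat shock proteins and their co-chaperones are the machinery that folds new proteins, holds unfolded ones and hands damaged ones to degradation. The genes described here were taken by symbol from the table of read counts: the HSP70 and HSP110 family (HSPA and HSPH1), the HSP90 family, the small heat shock proteins (HSPB), the mitochondrial chaperonin pair HSPD1 and HSPE1, the J-domain proteins (DNAJA, DNAJB, DNAJC) and the BAG proteins. Symbols ending in P, as pseudogene symbols do, were left out. The rule found 67 of the 19990 genes in the table, and all 67 were tested.

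HSP70 proteins bind and release exposed stretches of unfolded proteins in a cycle driven by ATP. J-domain proteins bring clients to HSP70 and start ATP hydrolysis, and BAG and HSP110 proteins release the nucleotide again. HSP90 acts later on near-native clients, the small heat shock proteins hold unfolding proteins without ATP, and in striated muscle several of them sit on the sarcomere, where mechanical load unfolds proteins continually. Many of these genes are induced by heat shock factor HSF1, which binds repeats of the unit nGAAn in alternating orientation.

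The cells were cardiomyocytes made from the induced pluripotent stem cell line WTC11, a widely shared human line, used at passage 63. Differentiation was started with CHIR99021, an inhibitor of GSK3, and continued with IWP2, an inhibitor of Wnt secretion. The wells were then fed B27 medium with insulin until collection. Groups differed only in the day of collection: 4 wells at Day 30, 3 at Day 60 and 4 at Day 113. The series set out to follow the maturation of such cells in long culture. All 11 wells came from 1 line and 1 differentiation, so the p-values measure the spread between wells and not between differentiations, and day and collection cannot be told apart.

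The libraries held between 24.1 and 34.5 M counts, with M for units of 1000000. All 8 cardiomyocyte markers examined were present in every well, and their summed level was 26700 to 38000 CPM (counts per 1000000 counts of the library) at Day 30, 32300 to 37200 at Day 60 and 27100 to 30000 at Day 113. Markers of other cells moved with the days. The sum of 7 endothelial markers was 73.9 to 103 CPM, 46.9 to 74.7 and 211 to 806 on the 3 days, that of 7 fibroblast markers 3350 to 7710, 2070 to 3570 and 5430 to 13000, and that of 7 epithelial or endodermal markers 984 to 2120, 459 to 591 and 73.4 to 238. The sum of 3 smooth muscle markers was 446 to 685, 522 to 675 and 702 to 1100 CPM on the 3 days. That of 4 markers of cells in the cell cycle was 282 to 354, 457 to 674 and 176 to 338 CPM. No tested marker of these lists was at 0 in all wells of a day. In bulk RNA, fewer cells of a type and less RNA per cell cannot be told apart. The part of other cell types in the results below was not tested. Marker values are given beside HSPA12B and beside the folding factors of the endoplasmic reticulum, without a test. Day 113 replicate 2 stood apart from the other Day 113 wells, with TTN at 2535 CPM against 5573 to 6744 and TNNT2 at 5816 against 3681 to 3985. Without it, 10, 30 and 30 members were called in the 3 comparisons of days, against 7, 27 and 29 with it.

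Fewer members were called between Day 30 and Day 60 than between Day 60 and Day 113, as in the whole table. A member is called here when its adjusted p from edgeR's quasi-likelihood test was under 0.05. At Day 60 against Day 30, 7 members were called, 3 higher and 4 lower, where 10.3% of all genes were called (4.39% higher and 5.91% lower). At Day 113 against Day 60, 27 were called, 18 higher and 9 lower, beside 24% of all genes (12.9% higher and 11.1% lower). At Day 113 against Day 30, 29 were called, 19 higher and 10 lower, beside 34.5% of all genes (17.3% higher and 17.2% lower). Over any day, 38 members were called, beside 37.1% of all genes.

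In percent of the 67 members these counts were 10.4, 40.3, 43.3 and 56.7. The share at Day 60 against Day 30 was therefore that of the whole table. The shares were also read against genes of similar level, the 10356 with a mean of at least 10 CPM, which include 59 members. Of these genes 13.6% were called at Day 60 against Day 30, beside 11.9% of the 59 members. At Day 113 against Day 60 the shares were 33.7% of the genes and 40.7% of the members, and at Day 113 against Day 30 they were 45.2% and 42.4%. Over any day they were 50% and 57.6%. The median log2 fold change of the members was -0.04, 0.15 and 0.16 in the 3 comparisons, and that of all genes -0.01, 0.00 and -0.02. The members as a whole took 1.16% ± 0.020 of all counts at Day 30 (SD, n = 4), 1.29% ± 0.006 at Day 60 (SD, n = 3) and 1.32% ± 0.084 at Day 113 (SD, n = 4).

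**Figure D1:**
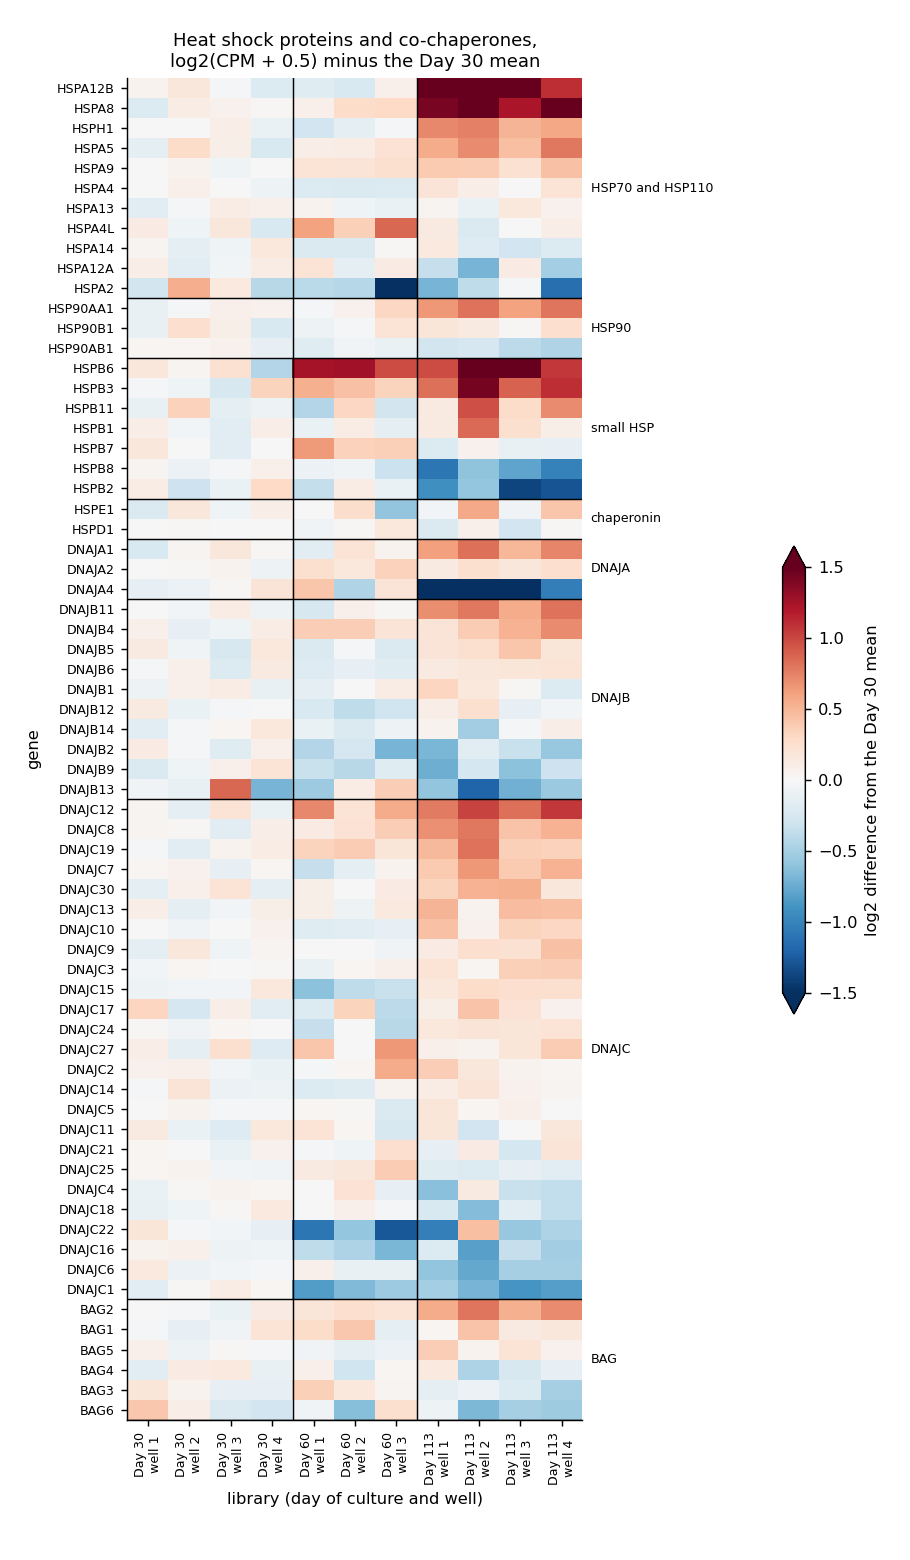
Each row is 1 of the 67 genes, grouped by family, and each column 1 of the 11 wells; the colour is log2(CPM + 0.5) minus the Day 30 mean of that gene, cut at 1.5 in both directions. HSPA8, HSPH1, HSP90AA1, DNAJA1 and DNAJB11 are high in all 4 Day 113 wells, HSPB8, HSPB2 and DNAJA4 are low in them, and HSPB7 and HSPA4L are high in the 3 Day 60 wells.

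The promoters of the genes were searched for the heat shock element, the sequence that HSF1 binds. The search took runs of alternating units with 2 free bases between them, that is GAANNTTCNNGAA or TTCNNGAANNTTC for 3 units, on both strands, in the RefSeq window of 300 bases (250 before the start and 50 after it) of GRCh38.p14. Of the 67 members 59 had such a window, and 6 of them (10.2%) held 3 units, beside 0.608% of all 27305 genes with a window. The 8 elements of these 6 genes are shown because they include the most abundant cytosolic HSP70 and HSP90 genes and 4 genes that were higher at Day 113 than at Day 60. Capitals mark the units, and each run is read 5′ to 3′ on the strand of the gene.

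HSPA8, nearer element, chr11:123062171-123062199, minus strand: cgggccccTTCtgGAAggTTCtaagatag
HSPA8, farther element, chr11:123062346-123062374, minus strand: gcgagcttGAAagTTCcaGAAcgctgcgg
HSP90AA1, chr14:102087112-102087140, minus strand: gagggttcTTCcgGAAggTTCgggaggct
HSP90AB1, farther element, chr6:44247770-44247798, plus strand: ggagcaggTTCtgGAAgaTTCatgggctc
HSP90AB1, nearer element, chr6:44247823-44247851, plus strand: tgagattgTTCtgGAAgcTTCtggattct
HSPD1, chr2:197500063-197500090, minus strand: gcattTTCtgGAAagTTCtgGAAccgag
DNAJB6, chr7:157336865-157336893, plus strand: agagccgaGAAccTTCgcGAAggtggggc
DNAJA1, chr9:33025268-33025296, plus strand: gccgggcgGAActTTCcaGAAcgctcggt

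The first unit of the elements lay 55 and 230 bases before the start in HSPA8, 88 in HSP90AA1, 112 and 165 in HSP90AB1, 131 in DNAJB6 and 245 in HSPD1, whose run holds 4 units. In DNAJA1 it began at the 4th base after the start. Of the members with a window, 4 of the 16 that were higher at Day 113 than at Day 60 held 3 units (HSPA8, HSP90AA1, DNAJA1 and DNAJB6), as did 0 of the 8 that were lower and 2 of the 35 not called (HSP90AB1 and HSPD1). A match describes these letters only, and the lack of one in this window does not show that HSF1 cannot bind the gene. DNAJB1, HSPH1, HSPA4L, HSPB1, HSPE1 and BAG3, on the list of HSF1-induced genes given below, held no run of 3 units.

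The HSP70 genes held the largest change of the well expressed members. HSPA8 encodes the constitutive cytosolic HSP70, which also uncoats clathrin vesicles and feeds chaperone-mediated autophagy. Its level was 266, 332, 320 and 311 CPM in the Day 30 wells, 322, 372 and 379 in the Day 60 wells, and 825, 894, 715 and 863 in the Day 113 wells. Every Day 113 well lay above every earlier well, while Day 30 and Day 60 overlapped. HSPA8 rose 2.30-fold from Day 60 to Day 113 (log2 fold change 1.20 ± 0.11 SE, adjusted p = 6.4e-06) and was 2.68-fold higher at Day 113 than at Day 30 (log2 1.42 ± 0.10 SE, adjusted p = 6.7e-08). The earlier interval gave no call (adjusted p = 0.25), and the change after Day 60 exceeded the change before it by 0.99 ± 0.20 on the log2 scale (SE, adjusted p = 0.0063). Without Day 60 replicate 1, the adjusted p of that difference was 0.069.

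HSPH1, the HSP110 that serves HSP70 as nucleotide exchange factor, followed the same course at a lower level. It stood at 47.7, 47.8, 51.3 and 44.7 CPM at Day 30, at 39.1, 43.2 and 47.3 at Day 60, and at 79.2, 80.9, 68.3 and 72.01 at Day 113. No Day 113 well overlapped the earlier wells. It rose 1.74-fold after Day 60 (log2 0.80 ± 0.10 SE, adjusted p = 7.7e-05), and the difference between the intervals was 0.95 ± 0.19 (SE, adjusted p = 0.0055, and 0.058 without Day 60 replicate 1).

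HSPA4L and HSPA4, close relatives of HSPH1 with the same kind of role, took other courses. HSPA4L read 29.9, 26.1, 30.7 and 23.3 CPM at Day 30, 41.8, 35.1 and 49.9 at Day 60, and 30.02, 23.4, 27.5 and 29.3 at Day 113. Its 3 Day 60 wells were above all 8 others. HSPA4L rose by 0.62 ± 0.14 on the log2 scale to Day 60 (SE, adjusted p = 0.010) and fell by 0.62 ± 0.14 after it (SE, adjusted p = 0.0052). The rise had an adjusted p of 0.061 without Day 60 replicate 3, and the difference between the intervals, -1.24 ± 0.25 (SE, adjusted p = 0.0059), one of 0.054. HSPA4 went the other way, with 162 to 164 CPM at Day 60 below the 180 to 199 of Day 30 and the 189 to 217 of Day 113. It rose by 0.34 ± 0.09 after Day 60 (log2, SE, adjusted p = 0.011). Its change from Day 30 to Day 60 was not called (log2 -0.21, adjusted p = 0.15).

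HSP90 exists in the cytosol as an inducible form, HSP90AA1, and a constitutive form, HSP90AB1. HSP90AA1 was measured at 562, 600.3, 641 and 635 CPM at Day 30, at 598, 636 and 755 at Day 60, and at 953, 1072, 929 and 1064 at Day 113. All 4 Day 113 wells exceeded all earlier wells, with 1.52-fold more than Day 60 (log2 0.60 ± 0.11 SE, adjusted p = 0.00084). HSP90AB1 was measured at 1222, 1221, 1256 and 1098 CPM at Day 30, at 1053, 1151 and 1119 at Day 60, and at 986, 1006, 913 and 875 at Day 113. It was lower at Day 113 than at Day 30, by 0.34 ± 0.09 on the log2 scale (SE, adjusted p = 0.0061), and its Day 113 wells lay below all others.

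The 2 forms thus came closer in read number. Within each library the count of HSP90AA1 was 0.460 to 0.579 times that of HSP90AB1 at Day 30, 0.553 to 0.674 times at Day 60 and 0.966 to 1.22 times at Day 113, with no overlap between Day 113 and the earlier days. The log2 ratio was 1.06 higher at Day 113 than at Day 30 (two-sided exact permutation p = 0.0286) and 0.83 higher than at Day 60 (exact permutation p = 0.0571), each the smallest p that the test allows for these group sizes. Adjusted over the 3 tests both became 0.0857, above the threshold. Day 60 and Day 30 differed by 0.23 (exact permutation p = 0.171). HSP90AA1 shares 3.75% of its exon bases with WDR20 on the opposite strand, and the strand setting of the counting is not given in the sources used here.

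DNAJA1, a cytosolic J-domain partner of HSPA8, rose with it. Its wells read 111, 134, 147 and 132 CPM at Day 30, 116, 151 and 135 at Day 60, and between 184 and 231 in the 4 wells of Day 113, so that Day 113 stood clear of both earlier days. The change after Day 60 was 0.63 ± 0.12 on the log2 scale (SE, adjusted p = 0.0014). DNAJB1, the J-domain protein most closely tied to the heat shock response, was called in no comparison, with 52.6 to 61.5 CPM, 51.2 to 61.6 and 49.3 to 71.01 on the 3 days (adjusted p = 0.61 for Day 113 against Day 30).

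**Figure D2:**
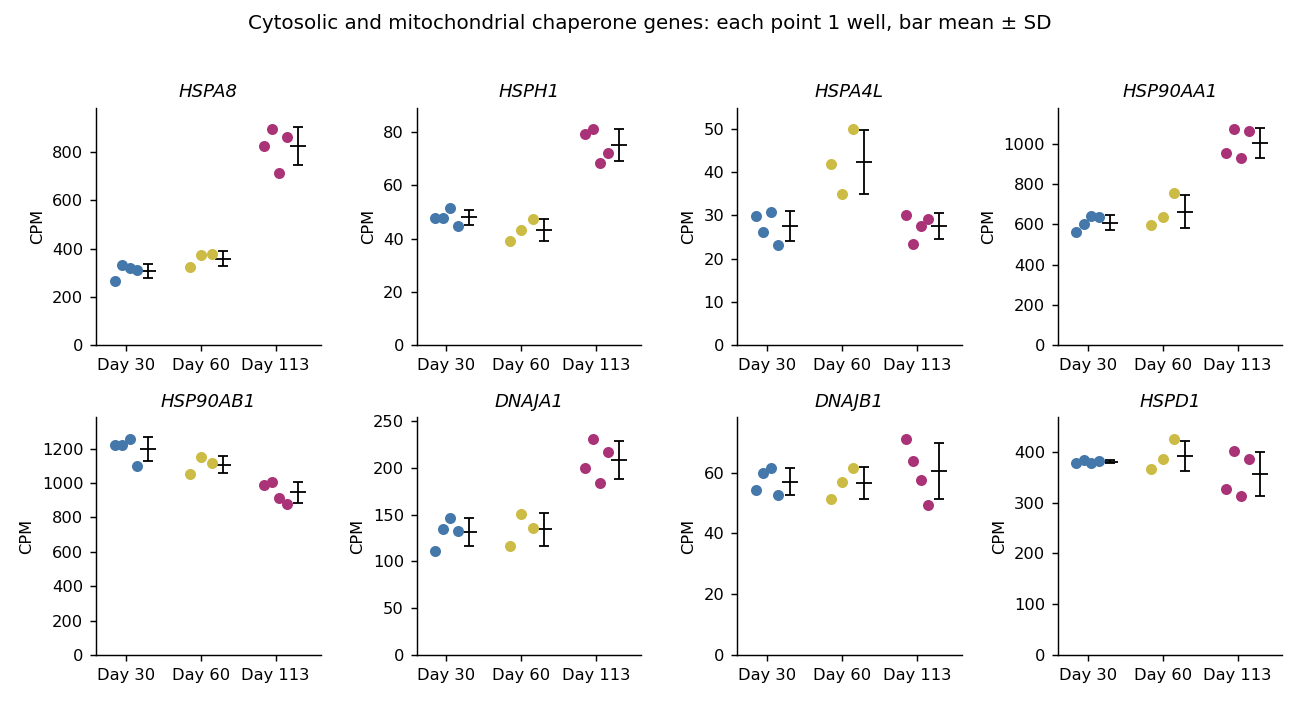
Level in CPM (vertical axes, starting at 0) of 8 chaperone genes by day; each point is 1 well, and the bar to the right is the mean with its SD (n = 4, 3 and 4). HSPA8, HSPH1, HSP90AA1 and DNAJA1 are higher in every Day 113 well than in any earlier well, HSP90AB1 is lower, HSPA4L is highest at Day 60, and DNAJB1 and HSPD1 overlap on all 3 days.

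Of a list of 13 genes taken as induced by HSF1 under proteotoxic stress, 10 were tested. The list includes HSPA8, described above as the constitutive cytosolic HSP70. At Day 113 against Day 60, 4 of the 10 were higher (HSPA8, HSPH1, HSP90AA1 and DNAJA1), 2 were lower (HSPA4L and BAG3) and 4 were not called (HSPB1, HSPD1, HSPE1 and DNAJB1). Of all genes 12.9% were higher and 11.1% lower in that comparison, and 33.7% of genes with a mean of at least 10 CPM were called. The median log2 fold change of the 10 was 0.36, beside 0.00 for all genes. HSPA4L was the 1 gene of the list called at Day 60 against Day 30, beside 10.3% of all genes. The median of the list there was 0.04. The other 3 genes of the list are not analysed here under their own symbols. HSPA1B_1, a copy of 1 of them with a numbered suffix and no member, had a mean of 2.46, 3.20 and 4.46 CPM on the 3 days and was 0.86 ± 0.28 higher at Day 113 than at Day 30 (log2, SE, adjusted p = 0.028). The further copies HSPA1B_2 and HSPA1B_4 were not called in that comparison (log2 0.60 and 1.05, adjusted p = 0.46 and 0.10).

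The heat shock factors HSF1 and HSF2 were higher at Day 60 than at Day 30 and lower at Day 113 than at Day 60. HSF1 was measured at 162 to 212 CPM at Day 30, 232 to 278 at Day 60 and 164 to 209 at Day 113. It rose by 0.45 to Day 60 (log2, adjusted p = 0.019) and fell by 0.50 after it (adjusted p = 0.0051). The rise had an adjusted p of 0.08 without Day 60 replicate 1 and of 0.068 without Day 30 replicate 3. HSF4, a factor best known from the lens, rose from 1.26 to 2.23 CPM at Day 30 to 5.79 to 7.19 at Day 60 (log2 1.75, adjusted p = 0.0011). Of the 4 factors and regulators tested, 3 were higher at Day 60 than at Day 30 (HSF1, HSF2 and HSF4), beside 4.39% of all genes. At Day 113 against Day 60, 2 were lower (HSF1 and HSF2) and 1 was higher, HSBP1, which binds HSF1, beside 11.1% and 12.9% of all genes. Of genes with a mean of at least 10 CPM, 13.6% were called in the earlier comparison and 33.7% in the later.

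Among the small heat shock proteins, 6 of the 7 are on a list of those found in striated muscle. Of these 6, 5 were called over the 3 days, in different directions, beside 37.1% of all genes. The share was 50% among genes with a mean of at least 10 CPM. HSPB7, a cardiac protein that binds thin filaments, had the highest level. Its wells read 4074, 3608, 3236 and 3626 CPM at Day 30, 5657, 4587 and 4627 at Day 60, and 3156, 3792, 3366 and 3328 at Day 113. The 3 Day 60 wells were above all others. HSPB7 rose by 0.45 ± 0.11 on the log2 scale to Day 60 (SE, adjusted p = 0.019) and fell by 0.54 ± 0.11 after it (SE, adjusted p = 0.003). The rise had an adjusted p of 0.093 without Day 60 replicate 1 and of 0.064 without Day 30 replicate 3, while the fall was called under every such omission.

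HSPB3, part of a muscle complex with HSPB2, went up. It was measured at 130, 126, 112 and 166 CPM at Day 30, at 191, 179 and 166 at Day 60, and at 235, 358, 244 and 285 at Day 113. Every Day 113 well exceeded every earlier well. HSPB3 rose 1.57-fold after Day 60 (log2 0.65 ± 0.15 SE, adjusted p = 0.0054) and was 2.10-fold higher at Day 113 than at Day 30 (log2 1.07 ± 0.14 SE, adjusted p = 2.4e-05).

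HSPB6, also called HSP20 and known as a kinase target in heart muscle, rose earlier. Its level was 7.72, 7.04, 8.03 and 4.88 CPM at Day 30, 16.9, 17.0 and 13.9 at Day 60, and 13.9, 23.1, 21.3 and 14.7 at Day 113. All later wells exceeded all Day 30 wells, and Day 60 and Day 113 overlapped. HSPB6 rose 2.30-fold to Day 60 (log2 1.20 ± 0.21 SE, adjusted p = 0.0019), and no change was called after it (adjusted p = 0.54). A gene on the opposite strand covers 38.2% of its exon bases.

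HSPB8 and HSPB2 went down late. HSPB8, which works with BAG3 in the autophagic disposal of damaged sarcomere proteins, read 181, 165, 172 and 186 CPM at Day 30, 165, 170 and 141 at Day 60, and 83.01, 116, 102 and 87.0 at Day 113. Its Day 113 wells lay below all others, and it fell by 0.71 ± 0.12 on the log2 scale after Day 60 (SE, adjusted p = 0.00046). HSPB2 read 12.2, 8.94, 10.4 and 13.9 CPM, then 8.62, 12.2 and 10.5, then 5.72, 7.31, 4.02 and 4.29. It fell by 0.97 ± 0.23 after Day 60 (log2, SE, adjusted p = 0.0069). Other genes cover 100% of the HSPB2 exons in GENCODE, among them CRYAB on the opposite strand, so its counts are uncertain.

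HSPB1, or HSP27, the small heat shock protein of most cell types, was not called. Its wells were at 1376, 1252, 1158 and 1379 CPM at Day 30, 1198, 1395 and 1167 at Day 60, and 1414, 2312, 1517 and 1367 at Day 113. The 2312 belongs to Day 113 replicate 2, the well with low TTN and high TNNT2. Of the 3 other Day 113 wells, that at 1367 lay within the range of the earlier days, and those at 1414 and 1517 lay above its highest value, 1395. HSPB11, which also serves in intraflagellar transport, was measured at 6.42 to 17.9 CPM and was not called either.

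Per kilobase of exon, HSPB7 and HSPB1 were the most abundant of the 67 genes. At Day 30 HSPB7 stood at 930 ± 87.7 CPM per kb and HSPB1 at 790.2 ± 65.3 (SD, n = 4), and at Day 113 the order of the means turned, with 872 ± 69.1 and 1011 ± 272 (SD, n = 4). The Day 113 ranges of 807 to 970 for HSPB7 and 837 to 1415 for HSPB1 overlapped. HSP90AB1 was next at Day 30 with 402 ± 23.3 CPM per kb, followed by HSPB3 with 170 ± 29.4, HSP90AA1 with 116 ± 6.96, HSPA5 with 111 ± 17.6 and HSP90B1 with 107 ± 15.8 (SD, n = 4). The last 3 did not differ beyond their spread. HSPA8 went from 63.4 ± 5.95 CPM per kb at Day 30 to 170.0 ± 16.1 at Day 113 (SD, n = 4), where it stood beside HSPA5 at 170 ± 17.7.

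**Figure D3:**
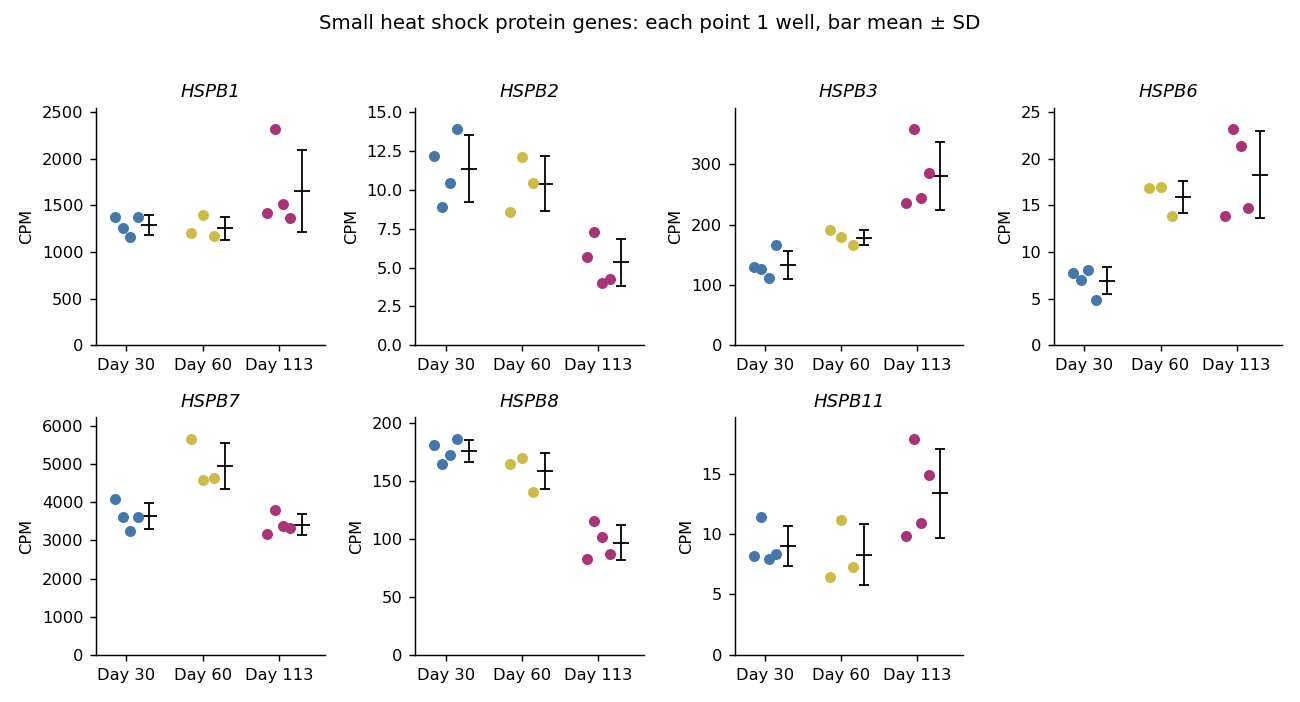
Level in CPM (vertical axes, starting at 0) of the 7 small heat shock protein genes by day; each point is 1 well, and the bar to the right is the mean with its SD (n = 4, 3 and 4). HSPB3 and HSPB6 are higher at Day 113 than at Day 30, HSPB2 and HSPB8 are lower, HSPB7 is highest at Day 60, and 1 Day 113 well of HSPB1 stands at 2312.

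The alpha crystallins belong to the same protein family under other names. CRYAB, abundant in heart, was measured at 265 to 348 CPM at Day 30, 699.7 to 713 at Day 60 and 713 to 1006 at Day 113. It rose by 1.14 to Day 60 (log2, adjusted p = 4.04e-05) and was 1.35 higher at Day 113 than at Day 30 (adjusted p = 5.61e-07). CRYAA, known from the lens, had 0 counts in 3 of the 4 Day 30 wells and 6 in the other, 133, 1808 and 790 in the Day 60 wells, and 0 to 257 at Day 113, so wells of 1 day differed widely.

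The chaperones of the endoplasmic reticulum, where secreted and membrane proteins fold, changed in part. Of 10 such members, 4 were higher at Day 113 than at Day 60 (HSPA5, DNAJB11, DNAJC10 and DNAJB12) and 0 were lower, beside 12.9% and 11.1% of all genes, with a median log2 fold change of 0.18. Among genes with a mean of at least 10 CPM, 33.7% were called in that comparison. HSPA5, the HSP70 of this compartment also called BiP, read 391, 518, 456 and 365 CPM at Day 30, 458, 462 and 499 at Day 60, and 631, 702, 586 and 740.0 at Day 113. The Day 113 wells lay above all earlier ones. It rose by 0.49 ± 0.12 after Day 60 (log2, SE, adjusted p = 0.0094).

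DNAJB11, a J-domain partner of HSPA5 in the lumen, read 32.9, 31.7, 35.2 and 31.0 CPM at Day 30, 27.6, 34.6 and 33.03 at Day 60, and 53.1, 56.8, 48.2 and 57.9 at Day 113, with no overlap. It rose by 0.77 ± 0.11 after Day 60 (log2, SE, adjusted p = 0.00021). DNAJC10, which reduces wrong disulfide bonds, was at 131 to 142 CPM, then 120 to 126, then 143 to 186, and rose by 0.45 ± 0.10 after Day 60 (log2, SE, adjusted p = 0.0032). HSP90B1, the HSP90 of this compartment, was not called, at 425 to 591, 470 to 572 and 503 to 593 CPM.

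Other members of the compartment were lower. DNAJC1, a membrane protein that meets ribosomes, read 36.7, 41.6, 44.3 and 41.8 CPM at Day 30, 22.8, 25.7 and 27.9 at Day 60, and 28.7, 25.2, 22.02 and 22.9 at Day 113. All later wells were below all Day 30 wells. It fell by 0.69 ± 0.13 to Day 60 (log2, SE, adjusted p = 0.0024). DNAJB9, a target of the unfolded protein response, was 0.48 ± 0.12 lower at Day 113 than at Day 30 on the log2 scale (SE, adjusted p = 0.0058), with 49.9 to 69.4 CPM against 71.5 to 96.6.

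Of 9 further folding factors of this compartment outside the family, 4 were higher at Day 113 than at Day 60 and 0 lower, beside 12.9% and 11.1% of all genes, and 2 were lower at Day 60 than at Day 30, beside 5.91%. Of genes with a mean of at least 10 CPM, 33.7% and 13.6% were called in these comparisons, in that order. PDIA4, a disulfide isomerase, rose by 0.74 after Day 60 (log2, adjusted p = 0.00056). CANX, the most abundant of them by counts and a lectin chaperone, was not called in any comparison of days. Fibroblast markers, which stand for cells that secrete much collagen, also had a higher sum at Day 113 than at Day 60 (5430 to 13000 and 2070 to 3570 CPM). Of the 7 markers, 4 were called higher and 1, PDGFRA, lower, and their part in these changes was not tested.

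In mitochondria, HSPA9 pulls precursor proteins through the inner membrane and the HSPD1 and HSPE1 chaperonin folds them. HSPA9 was at 219 to 237 CPM at Day 30, 262 to 270 at Day 60 and 268 to 310 at Day 113. It was 0.36 ± 0.08 higher at Day 113 than at Day 30 (log2, SE, adjusted p = 0.0021). HSPD1 was not called, with 378, 384, 378 and 382 CPM at Day 30, 366, 385 and 425 at Day 60, and 327, 401, 312 and 385 at Day 113. HSPE1, read from the opposite strand beside it and sharing 23.9% of its exon bases with other genes, was not called, at 13.0 to 29.8 CPM over all wells.

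DNAJC15 is an inner membrane protein known to dampen the respiratory chain. It read 42.5, 43.8, 43.8 and 50.1 CPM at Day 30, 29.2, 34.5 and 35.5 at Day 60, and 50.4, 54.5, 53.8 and 53.2 at Day 113. The Day 60 wells were the lowest 3 and the Day 113 wells the highest 4. It fell by 0.45 ± 0.10 to Day 60 (log2, SE, adjusted p = 0.012, and 0.098 without Day 60 replicate 1) and rose by 0.68 ± 0.10 after it (SE, adjusted p = 0.0003). Its difference between the intervals, 1.13 ± 0.19, had an adjusted p of 0.002. DNAJC19, of the import motor and mutated in a form of cardiomyopathy, was at 17.1 to 20.7 CPM at Day 30 and 24.3 to 34.01 at Day 113.

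Of 7 mitochondrial partners outside the family, 1 was higher and 0 lower at Day 113 than at Day 60, beside 12.9% and 11.1% of all genes. Against Day 30, 1 was higher and 2 were lower at Day 113 (TRAP1 and GRPEL1), beside 17.3% and 17.2%. The 1 higher after Day 60 was GRPEL2, a nucleotide exchange factor of HSPA9, which rose by 0.79 (log2, adjusted p = 0.0065). LONP1, a protease and the most abundant of the list by counts, was not called.

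BAG proteins release nucleotide from HSP70. BAG3, which joins HSPB8 and HSPA8 in muscle and is mutated in dilated cardiomyopathy, read 119.9, 109, 96.9 and 96.6 CPM at Day 30, 135, 117 and 108 at Day 60, and 94.9, 99.3, 91.6 and 74.5 at Day 113. It fell by 0.42 ± 0.12 after Day 60 (log2, SE, adjusted p = 0.018, and 0.091 without Day 60 replicate 1). The Day 60 and Day 113 wells did not overlap, and the Day 30 wells overlapped both. BAG2, which restrains the ubiquitin ligase CHIP, read 32.04, 31.4, 29.8 and 34.7 CPM, then 36.3, 38.1 and 37.0, then 47.4, 55.9, 46.4 and 52.6. The 3 days did not overlap, and BAG2 was 0.66 ± 0.10 higher at Day 113 than at Day 30 (log2, SE, adjusted p = 7.7e-05). RAB23 and another gene on the opposite strand share 44.2% of the BAG2 exon bases. BAG1, BAG4, BAG5 and BAG6 were not called.

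Of 18 co-chaperones of HSP70 and HSP90 outside the DNAJ and BAG families, 8 were higher and 0 lower at Day 113 than at Day 60, beside 12.9% and 11.1% of all genes. The called share of genes with a mean of at least 10 CPM was 33.7% there, and 45.2% at Day 113 against Day 30. Over the whole course, Day 113 against Day 30, 5 were higher and 2 lower (CHORDC1 and ST13), beside 17.3% and 17.2%. HSPBP1, a nucleotide exchange factor, rose by 0.59 from Day 60 to Day 113 (log2, adjusted p = 0.0116, and 0.065 without Day 60 replicate 3). SMYD1, the heart and muscle protein of highest count on that list, was not called. Of the 9 subunits of the cytosolic chaperonin that folds actin and tubulin, 4 were higher and 0 lower at Day 113 than at Day 60. Against Day 30, 4 were higher and 1 lower (CCT4) at Day 113. These counts are to be read against the same shares of all genes and of genes with a mean of at least 10 CPM. CCT3, the subunit of highest count, was not called, and CCT6B, at 2 to 4.5 CPM on average, was 1.12 higher at Day 113 than at Day 30 (log2, adjusted p = 0.0166, and 0.052 without Day 30 replicate 3). Of 5 prefoldin subunits tested, 1 was higher and 1 lower at Day 113 than at Day 30, beside 17.3% and 17.2% of all genes. The higher one, VBP1, was 0.54 higher (log2, adjusted p = 0.0018).

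The remaining J-domain genes went both ways. DNAJA4, a cytosolic relative of DNAJA1, had the largest fall of the called members. It read 7.37, 7.54, 8.19 and 9.31 CPM at Day 30, 10.9, 5.79 and 9.27 at Day 60, and 2.11, 2.55, 1.43 and 3.69 at Day 113. The Day 113 wells lay below all others, and DNAJA4 fell by 1.83 ± 0.29 after Day 60 (log2, SE, adjusted p = 0.0004). DNAJA2, the third gene of that subfamily, was not called, at 90.4 to 121 CPM over all wells.

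DNAJC6, the auxilin that recruits HSPA8 to clathrin coats, went opposite to HSPA8. It read 146, 124, 129 and 130 CPM at Day 30, 139, 123 and 122 at Day 60, and 87.5, 77.2, 93.3 and 93.4 at Day 113, with the Day 113 wells below all others. It fell by 0.54 ± 0.10 after Day 60 (log2, SE, adjusted p = 0.0011). DNAJC7, which binds both HSP70 and HSP90, read 58.02, 59.5, 52.3 and 58.02 CPM, then 44.5, 51.3 and 59.0, then 74.7, 89.4, 74.7 and 81.9. It rose by 0.64 ± 0.11 after Day 60 (log2, SE, adjusted p = 0.00077) with no overlap.

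Changes were called for a few more genes of the group. DNAJB6, which keeps proteins from aggregating and is mutated in a muscular dystrophy, was at 80.5 to 84.8 CPM at Day 60 and 101 to 107 at Day 113 (log2 0.34, adjusted p = 0.016). Leaving out Day 60 replicate 1 gave an adjusted p of 0.073, and leaving out Day 60 replicate 3 gave 0.059. DNAJC12, a partner of the aromatic amino acid hydroxylases, was at 1.87 to 2.501 CPM at Day 30 and 3.98 to 4.93 at Day 113 (log2 1.07, adjusted p = 0.0042). DNAJB2, best known from neurons, was at 138 to 170 CPM at Day 30 and 96.4 to 139 at Day 113 (log2 -0.43, adjusted p = 0.013), with 1 Day 113 well inside the Day 30 range. DNAJC16 was at 45.2 to 50.3 CPM at Day 30 and 26.8 to 41.1 at Day 113 (log2 -0.46, adjusted p = 0.0094). Its Day 60 call, like that of DNAJB2 (adjusted p of 0.025 and 0.041), was lost without any 1 of 5 wells for DNAJC16 and of 6 wells for DNAJB2, most of all without Day 60 replicate 3 (adjusted p of 0.15 and 0.23). DNAJC25 and DNAJC18 were lower at Day 113 than at Day 60 (log2 -0.41 and -0.36, adjusted p = 0.023 and 0.04), and each call was lost without Day 60 replicate 3, with adjusted p of 0.096 and 0.07. DNAJC18 lost its call without any 1 of 6 wells, with 0.11 as the highest adjusted p, without Day 60 replicate 2.

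The largest fold change of all members belonged to HSPA12B, a distant HSP70 relative known from endothelial cells. It was at 0.917, 1.03, 0.856 and 0.687 CPM at Day 30, 0.702, 0.663 and 0.946 at Day 60, and 15.9, 9.37, 9.70 and 2.45 at Day 113. All 4 Day 113 wells exceeded all others, and they differed widely among themselves. It rose by 3.60 ± 0.50 after Day 60 (log2, SE, adjusted p = 0.00013). In the same 4 wells the sum of the endothelial markers was 806, 342, 399 and 211 CPM, against 46.9 to 103 in the 7 earlier wells, so the well highest in HSPA12B was the highest in these markers and the lowest was the lowest. As a share of that sum, HSPA12B was 0.838% to 1.00% at Day 30, 0.888% to 2.02% at Day 60 and 1.16% to 2.74% at Day 113.

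**Figure D4:**
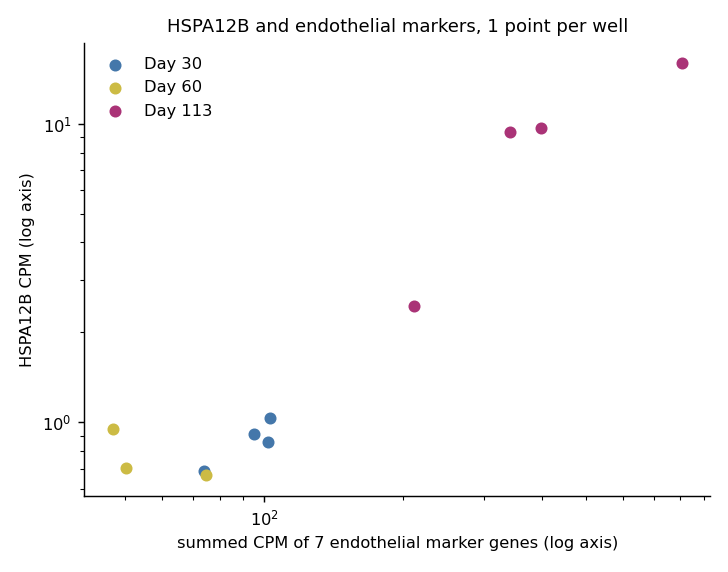
HSPA12B in CPM (vertical log axis) against the summed CPM of 7 endothelial marker genes (horizontal log axis), 1 point per well and 1 colour per day. The 4 Day 113 wells lie at 2.45 to 15.9 CPM and at 211 to 806 summed CPM, and the 7 earlier wells at 0.663 to 1.03 and 46.9 to 103.

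Whether a member changed differently in the 2 intervals was tested directly. The difference between them was called for 11 members, 8 of them with the more positive change after Day 60, beside 9.34% of all genes. Among genes with a mean of at least 10 CPM it was called for 13.1%, beside 15.3% of the 59 members at that level. The 8 were HSPA8, HSPH1, HSPA4, HSPA12B, DNAJB11, DNAJC7, DNAJC10 and DNAJC15, and the 3 with the more negative change were HSPB7, HSPA4L and DNAJA4. As both intervals use the 3 Day 60 wells, a shift of those wells moves them in opposite directions: without Day 60 replicate 1 the difference was called for 2 members, and without Day 60 replicate 3 for 5.

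**Figure D5:**
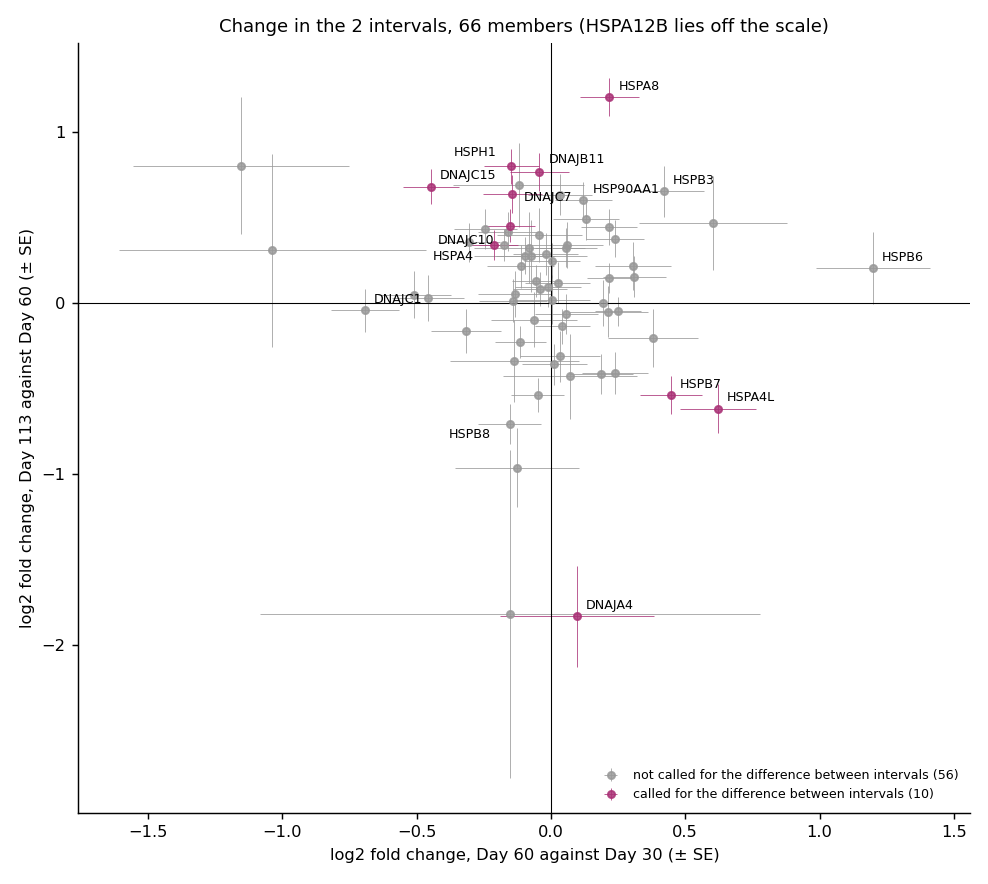
Log2 fold change of 66 members from Day 30 to Day 60 (horizontal axis) and from Day 60 to Day 113 (vertical axis), with bars of 1 SE; HSPA12B, at 3.60 on the vertical axis, is off the scale. Coloured points were called for the difference between the intervals; HSPA8 stands highest, HSPB7 and HSPA4L lie at the lower right and DNAJA4 lowest of the coloured points.

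No comparison of days called 28 of the 67 members. Besides those named above they include HSPA13 at 62.4 to 78.6 CPM and DNAJC5, the cysteine string protein of vesicles, at 89.3 to 117.7 CPM over all wells. The members known mainly from testis, HSPA2 and DNAJB13, were at 0.315 to 2.87 and 0 to 1.58 CPM and were not called.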

How the data were processed

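Count and TPM tables were used, as the authors deposited them: read counts per gene, whole numbers without normalization, and TPM values, for poly(A) RNA libraries read as paired 150-base reads, per the labels. The submitters' processing notes name STAR 2.5.3a, featureCounts 2.0.3 and hg38; annotation and strand setting are not given in the sources used here. Count divided by TPM, which should follow gene length, was unrelated between libraries (median Spearman rho over genes -0.00048 across 55 library pairs), so the deposited TPM served as an alternative only.

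For the 19990 genes, edgeR 4.0.16 (R 4.3.3) gave quasi-likelihood F-tests from 1 fit of all 11 libraries on day, with TMM scaling. A filter at a minimum count of 10 (filterByExpr) removed 0 genes. Adjustment was by Benjamini-Hochberg over all genes of a contrast, with a threshold of 0.05; every adjusted p of a gene is from this test unless another tool is named. The SE of a log2 fold change is its size over the root of F. CPM used TMM effective library sizes. The biological coefficient of variation was 0.282. Counts have no molecular identifiers. Wells of a day differed by more than sampling noise (chi-square per degree of freedom 11.1 to 80.8), so each was kept as a sample.

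Log2 ratios used a pseudocount of 0.5 and exact permutation tests in scipy 1.17.1, whose two-sided p doubles the smaller tail. Of 6 such tests planned, 3 were run. Levels per kb used the merged exon length of GENCODE 29, and sequences came from RefSeq (GRCh38.p14). The test was tested on simulated data. Alternatives were RLE and upper-quartile scaling, DESeq2 1.42.0, limma-voom (limma 3.58.1), a mean CPM of at least 1, robust dispersions, a threshold of 0.01, a replicate block, leaving out each well, fitting only 2 days, and limma on log2(TPM + 1).

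The members, the lists and the tests were chosen with earlier results of these data known. The rule for members named with values took all genes of the stress-inducible and the muscle small heat shock protein lists, up to 2 of highest mean CPM per family, called members of at least 1 CPM among the 10 highest and 10 lowest fold changes of each comparison, and members called for the difference between intervals; for partner lists, the gene of highest mean CPM and that of the largest called change. HSPA9, HSP90B1, HSPA13, HSPA2, DNAJB13, DNAJC19, DNAJC5, HSPB11, HSF2, HSBP1, PDGFRA, TRAP1, GRPEL1, CHORDC1, ST13, CCT4 and HSPA1B_1 were named after their values were seen where the rule did not take them. So were HSPA1B_2, HSPA1B_4 and HSPA1L_1.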

Additional observations from a re-analysis of the deposited data

Results flagged for a closer look

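In Day 113 replicate 2, HSPB1 stood at 2312 CPM, apart from the 1367 to 1517 CPM of the other Day 113 wells. It was the 1 such value among 74 groups of 4 wells of named members, where chance gives about 1 in 20. The same well had the low TTN and high TNNT2 given above, and what links them was not tested.

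The change after Day 60 differed from the change before it, by the direct test, in 11 members. On the log2 scale the later change exceeded the earlier by 0.986 in HSPA8, 0.945 in HSPH1, 0.547 in HSPA4, 3.77 in HSPA12B, 0.809 in DNAJB11, 0.778 in DNAJC7, 0.605 in DNAJC10 and 1.13 in DNAJC15. It was below the earlier in HSPA4L (-1.24), HSPB7 (-0.987) and DNAJA4 (-1.93). DNAJC15 and HSPB7 changed in opposite directions in the 2 intervals with both changes called, as did HSPA4L. The calls for DNAJC10 and HSPA4 were lost under 10 and 9 of the 18 alternatives on the counts.

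The count table also holds copies of the HSP70 genes HSPA1B and HSPA1L under symbols with a numbered suffix, which the rule for members does not take. Their highest counts in any library were 17 for HSPA1L_1, 153 for HSPA1B_1, 41 for HSPA1B_2 and 50 for HSPA1B_4. HSPA1B_1 had a mean of 2.46, 3.20 and 4.46 CPM on Days 30, 60 and 113 and was 0.86 ± 0.28 higher at Day 113 than at Day 30 (log2, SE, edgeR adjusted p = 0.028). The remaining copies were not called in that comparison. Their log2 changes were 0.60 for HSPA1B_2, 1.05 for HSPA1B_4 and 0.75 for HSPA1L_1 (edgeR adjusted p = 0.46, 0.10 and 0.66). How reads were shared between near-identical copies is not given in the sources used here.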

How the results depend on the processing

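Depth and the number of wells limit the low members most, since HSPA2, DNAJB13 and DNAJC12 rest on few counts. On the counts, 55 of 78 pairs of a named gene and a comparison were called under all of up to 19 alternatives, and 0 changed direction. For the earlier interval, the later interval, the whole course, any day and the difference between the intervals, in that order, leaving out 1 well gave 3 to 10, 20 to 30, 28 to 32, 31 to 39 and 2 to 14 called members. The deviations of same-numbered wells had small positive correlations (r of 0.023 to 0.076 in 10 pairs, 0 above 0.1). Pairs of other numbers ran from -0.078 to 0.069, so a weak link between same-numbered wells cannot be dismissed. With a replicate block 10, 31, 31, 39 and 11 members were called. At a threshold of 0.01 the calls were 2 at Day 60 against Day 30, 24 over any day and 5 for the difference between the intervals. DESeq2 called 11 at Day 60 against Day 30 and 18 for the difference, and a fit of only the Day 30 and Day 60 wells called 12. HSPA12B lost the call of its difference between the intervals with limma-voom (adjusted p = 0.31). The log2 ratio of HSP90AA1 to HSP90AB1 kept its direction under every alternative on the counts. Without 1 well it was 0.77 to 0.92 for Day 113 against Day 60 and 0.998 to 1.13 for Day 113 against Day 30.

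The deposited TPM cannot test these results, since count over TPM was unrelated between libraries (median Spearman rho over genes -0.00048). With limma on log2(TPM + 1), 0 members were called in each comparison, with an unadjusted p under 0.05 for 4, 3, 3, 2 and 4 of them in the order above. Values that changed sign there were, at Day 60 against Day 30, DNAJB2 0.98, DNAJC15 0.82 and HSF1 -2.75; at Day 113 against Day 60, DNAJA1 -0.38, HSPB3 -2.39, HSPB7 0.32, DNAJC10 -1.45, DNAJC15 -1.74, DNAJB11 -1.54, BAG2 -1.65, HSPA4 -0.32 and GRPEL2 -0.70; at Day 113 against Day 30, HSPH1 -1.73, DNAJB2 0.045, DNAJC7 -0.13, PDIA4 -0.52 and GRPEL2 -0.13; and for the difference between the intervals, DNAJC10 -4.46, DNAJC15 -2.57, DNAJB11 -4.58 and DNAJA4 1.89. Gene lengths implied by these TPM values differed between libraries, so no conclusion is drawn from these signs or from the 0 calls. The ratio of inducible to constitutive HSP70 was not run.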
